A study of Mus musculus with 3 samples.

Results

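N1E-115 is a mouse neuroblastoma line, grown from a tumour of developing sympathetic neurons, and its poly(A) RNA was sequenced in 3 libraries. All 3 came from untreated wild-type cells at day 0, labelled neuroblasts and kept in growth conditions. The labels give 1 group, so the data hold no contrast between conditions. Nothing in the labels says whether the libraries came from separate cultures, so the spread between them may be technical. The genes described here are the 10 that write, maintain or erase DNA methylation, found by symbol among the 24384 named genes of the count table. They are the DNA methyltransferase family (Dnmt1, Dnmt3a, Dnmt3b and Dnmt3l), the maintenance cofactors Uhrf1 and Uhrf2, the Tet dioxygenases (Tet1, Tet2 and Tet3) and the glycosylase Tdg.

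In mammals, DNA methylation sits mainly on the cytosine of CpG dinucleotides. De novo methyltransferases place it, and after replication Uhrf1 recognises hemimethylated CpGs and brings Dnmt1 to them, so that the pattern passes to both daughter strands. Tet enzymes oxidise methylcytosine, and Tdg can excise the later oxidation products, which base excision repair then replaces with unmethylated cytosine. In the nervous system Dnmt3a and Tet3 are known as the forms that remain abundant in neurons, whereas Dnmt3b, Dnmt3l and Tet1 are known from early embryos, stem cells and germ cells.

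Replicate 1 had 17731376 estimated counts over all named genes, replicate 2 had 13942014 and replicate 3 had 15432235. A level of 1 gene over the libraries is given in CPM, the count scaled to 1e6 counts of those totals. Levels of different genes are compared as counts per kilobase of exon, scaled so that all genes of a library have the same sum (1e6), and are called length-scaled levels. Values are mean ± SD over n = 3 libraries. A gene was called detected at 1 CPM or more in every library, and a count of 0 allows up to 3 counts, or between 0.169 and 0.215 CPM per library, for counting error only. The cell label was checked against marker genes. All 8 sympathoadrenal markers were detected, between 102 CPM (Gata3) and 2632 CPM (Chgb). Of 5 glial markers 1 was detected, Sox10 held 2 counts, and the list summed to between 2.65 and 3.11 CPM. Of 8 markers of blood, vessel, stromal and epithelial cells, Pecam1 (6.69 CPM) and Col1a1 (2.45 CPM) were detected, Ptprc and Epcam had no counts, and the list summed to between 7.06 and 11.4 CPM. The part of other cells in the levels below was not tested. In bulk RNA, fewer cells of a type and less RNA per cell cannot be told apart.

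Of the 10 genes, 9 were detected, against 47.3% of all named genes. Uhrf1 and Dnmt1, the maintenance pair, had the highest levels, Dnmt3a was the more abundant de novo enzyme, Tet3 the most abundant Tet enzyme, and Dnmt3l was almost without counts. The median over the 10 genes was 73.9 CPM, against 0.616 CPM over all named genes.

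**Figure D1:**
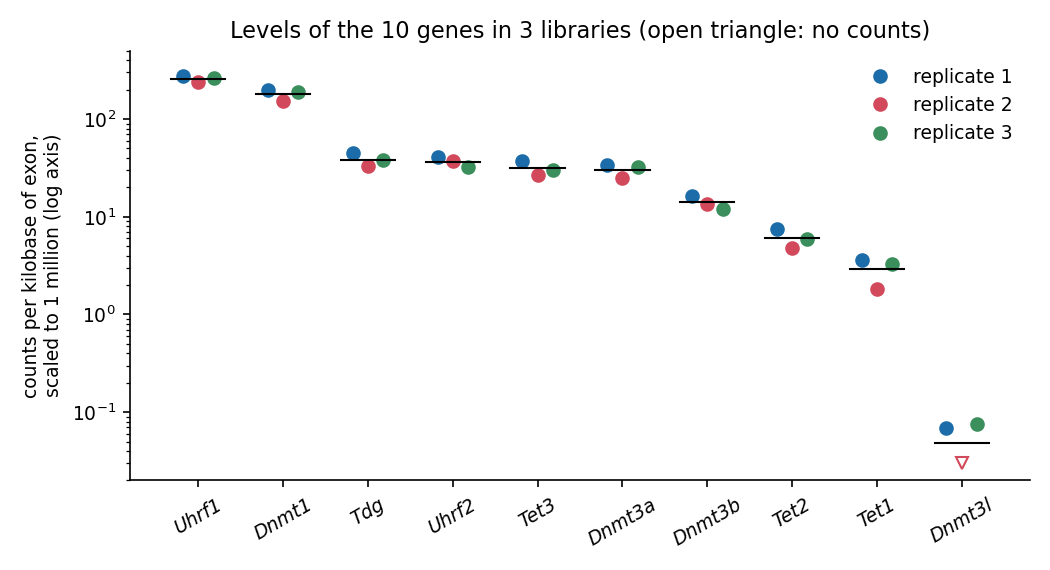
Length-scaled level (log axis) of the 10 genes in each library, ordered by mean, with a black line at the mean and an open triangle where a library had no counts. Uhrf1 (257) and Dnmt1 (180) stand apart at the top, and Dnmt3l (0.0484) lies far below Tet1 (2.90).

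Uhrf1, the reader of hemimethylated DNA, had the highest length-scaled level of the 10 genes. It held 5673, 4127 and 4879 counts in replicates 1, 2 and 3, which is 320, 296 and 316 CPM (311 ± 12.9). Its coefficient of variation of 4.14% was the smallest of the 10. The median over the 9 detected members was 12.9%, against 9.80% over all detected genes. The gene lies on chromosome 17 from 56303321 to 56323486 on the plus strand of mm10. Per kilobase it reached 273, 237 and 262 (257 ± 18.6), and only 2.74% of the 23999 genes with a known length were higher.

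Dnmt1, the maintenance methyltransferase, had more counts than Uhrf1 but a longer transcript. It lies on chromosome 9 from 20907209 to 20959888 on the minus strand. It held 7161, 4586 and 6135 counts, or 404, 329 and 398 CPM (377 ± 41.6), with replicate 2 the lowest. Its length-scaled levels were 199, 152 and 190 (180 ± 25), below those of Uhrf1 in every library, and the ranges of the genes did not overlap. The mean log2 ratio of Dnmt1 to Uhrf1 per kilobase was -0.52 ± 0.10, and in counts without length it had the opposite sign, 0.27. Both genes lay in the range of 17 genes of DNA replication and proliferation, called S-phase genes here. These 17 spanned length-scaled levels of 42.1 to 462 with a median of 172. The list includes Top2a and Mki67, which are not confined to S phase. In that list 2 genes were above Uhrf1, namely Top2a (462) and the replicative helicase subunit Mcm3 (290), and 7 were above Dnmt1.

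The promoters of the members were read from RefSeq (GRCm38.p6, the same build as mm10), as windows from 250 bases before to 50 after each annotated start site. All 10 genes were matched, with 17 windows. The windows of Uhrf1 and Dnmt1 richest in CpG are shown because these genes were the most abundant, and that of Dnmt3l because it was nearly silent. CpG dinucleotides are in capitals.
Uhrf1 (chr17:56304063-56304362, plus strand): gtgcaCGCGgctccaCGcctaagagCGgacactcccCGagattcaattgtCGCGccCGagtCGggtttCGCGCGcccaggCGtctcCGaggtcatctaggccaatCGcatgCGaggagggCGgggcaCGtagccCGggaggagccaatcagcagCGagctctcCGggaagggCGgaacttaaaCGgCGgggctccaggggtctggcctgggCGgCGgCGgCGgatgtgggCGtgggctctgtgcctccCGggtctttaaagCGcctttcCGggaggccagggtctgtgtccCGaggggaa
Dnmt1 (chr9:20952574-20952873, minus strand): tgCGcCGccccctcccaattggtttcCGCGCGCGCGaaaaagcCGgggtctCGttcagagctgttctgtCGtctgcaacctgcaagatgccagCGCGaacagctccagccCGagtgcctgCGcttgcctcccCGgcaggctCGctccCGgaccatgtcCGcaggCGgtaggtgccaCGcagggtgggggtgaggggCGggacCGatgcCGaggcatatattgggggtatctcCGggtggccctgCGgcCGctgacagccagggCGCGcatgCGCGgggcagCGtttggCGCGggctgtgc
Dnmt3l (chr10:78042037-78042336, plus strand): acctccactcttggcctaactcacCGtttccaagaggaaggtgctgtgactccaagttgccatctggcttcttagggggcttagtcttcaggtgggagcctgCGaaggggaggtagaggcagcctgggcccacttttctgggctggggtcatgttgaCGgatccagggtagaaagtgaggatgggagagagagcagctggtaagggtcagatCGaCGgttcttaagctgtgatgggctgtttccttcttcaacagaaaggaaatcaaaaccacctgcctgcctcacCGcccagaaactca
The windows of Uhrf1 and Dnmt1 hold 33 CpGs each, a number reached by 8.56% of all 32851 windows, whose median is 7. The other windows of these genes are poorer, with 12 CpGs for Uhrf1, and 12 and 2 for Dnmt1. For both genes the printed window lies downstream of the other annotated start sites. It is therefore inside the gene for a transcript that begins at those sites. The 3 windows of Dnmt3l hold 6, 4 and 3 CpGs, and 47.9% of all windows have 6 or fewer. Each detected member has at least 1 window with 17 CpGs or more, up to 57 for Tet2. Gene counts do not tell which start site was used.

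Promoters of many S-phase genes are known to bind E2F factors, so the windows were searched on both strands, overlaps allowed, for TTTCCCGC, TTTCGCGC, TTTGGCGC and TTTGCCGC, a search chosen with the levels known. Of the 10 members, Uhrf1 and Dnmt1 had a match. In the Uhrf1 window TTTCGCGC begins 185 bases before the start site. In the Dnmt1 window GCGCGAAA, the reverse complement of the same letters, begins 219 bases before the start site, and TTTGGCGC 33 bases after it. These are the windows printed above, and the other windows of both genes held no match. For a transcript from the other annotated start sites, the matches lie inside the gene and not before its start. Of all windows 2.26% hold such a match, and by gene 2.60%. Every searched word contains a CpG, and these shares were not matched for CpG number. The windows of Uhrf1 and Dnmt1 with a match hold 33 CpGs each, against a median of 7. No enrichment is therefore read from the shares. Among the S-phase genes a match was present in 6 of 14 with a window, namely Mcm3, Mcm5, Mcm6, Mcm7, Cdc6 and Cdt1. Mcm2, Rrm1, Rrm2, Tyms, E2f1, Ccne1, Top2a and Mki67 had none. A match was also present in 2 of 16 germline genes described further on, Sycp3 and Slc25a31, neither of which was detected. A match describes letters and is no evidence of binding.

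Uhrf2, a paralogue of Uhrf1 that does not replace it in maintenance in mouse cells, was lower (chromosome 19, 30030513 to 30093722, plus strand). It held 1697, 1314 and 1207 counts, or 95.7, 94.2 and 78.2 CPM (89.4 ± 9.71), with replicate 3 the lowest. Uhrf1 exceeded it per kilobase in 3 of 3 libraries, by a mean log2 ratio of 2.81 ± 0.19, or 7.02-fold in summed counts (95% exact interval 6.78 to 7.27). That interval covers counting error only, and replicates 1, 2 and 3 gave 6.74, 6.33 and 8.15-fold, all outside it. The size depends on the length used. Uhrf2 has 8590 nt of exon over all annotated transcripts but 3536 nt in its longest transcript, and with the latter the log2 ratio was 1.78. Uhrf1 made up 87.5 ± 1.40% of the length-scaled level of both genes with exon length and 77.4 ± 2.26% with the longest transcript.

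Dnmt3a, the de novo methyltransferase of neurons and other differentiated cells, was at a moderate level (chromosome 12, 3806007 to 3914443, plus strand). It held 2764, 1704 and 2351 counts, or 156, 122 and 152 CPM (143 ± 18.5). Replicate 2 was the lowest and the others were close. Its length-scaled level was 30.5 ± 4.79. Dnmt1 exceeded it by a log2 ratio of 2.55, 2.60 and 2.56, the smallest SD of the ratios compared (2.57 ± 0.03, or 5.92-fold in summed counts, exact interval 5.75 to 6.08). Dnmt3aos, an antisense RNA that shares 133 nt of exon with Dnmt3a, had no counts.

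Dnmt3b, the de novo enzyme known from early embryos and from methylation of satellite repeats, was lower still (chromosome 2, 153649450 to 153687730, plus strand). It held 412, 280 and 270 counts, which gave 23.2, 20.1 and 17.5 CPM (20.3 ± 2.87). The length-scaled level was 14.0 ± 2.28, and its range did not overlap that of Dnmt3a. The log2 ratio of Dnmt3a to Dnmt3b was 1.12 ± 0.27 and was 1.42 in replicate 3, against 1.04 and 0.90 in the other libraries.

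Dnmt3l, a cofactor without catalytic activity that stimulates Dnmt3a and Dnmt3b in germ cells and embryonic stem cells, was not detected (chromosome 10, 78041947 to 78063622, plus strand). It held 1, 0 and 1 counts, or 0.0425 CPM over the summed libraries (exact Poisson 95% interval 0.00514 to 0.153). Dnmt3a exceeded it 612-fold per kilobase in summed counts, with a wide exact interval of 169 to 5056. Dnmt3l shares 67 nt of exon with Aire on the opposite strand, which held 1, 0 and 0 counts. Of 5 markers of pluripotent and germ cells, Pou5f1, Zfp42 and Utf1 had no counts, Nanog was at 0.675 CPM, and Dppa4 was detected at 11.1 ± 2.31 CPM. Trdmt1, a homologue that methylates transfer RNA, was detected at 16.8 ± 0.263 CPM, and Dnmt3c, a rodent germline paralogue, was not analysed here.

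**Figure D2:**
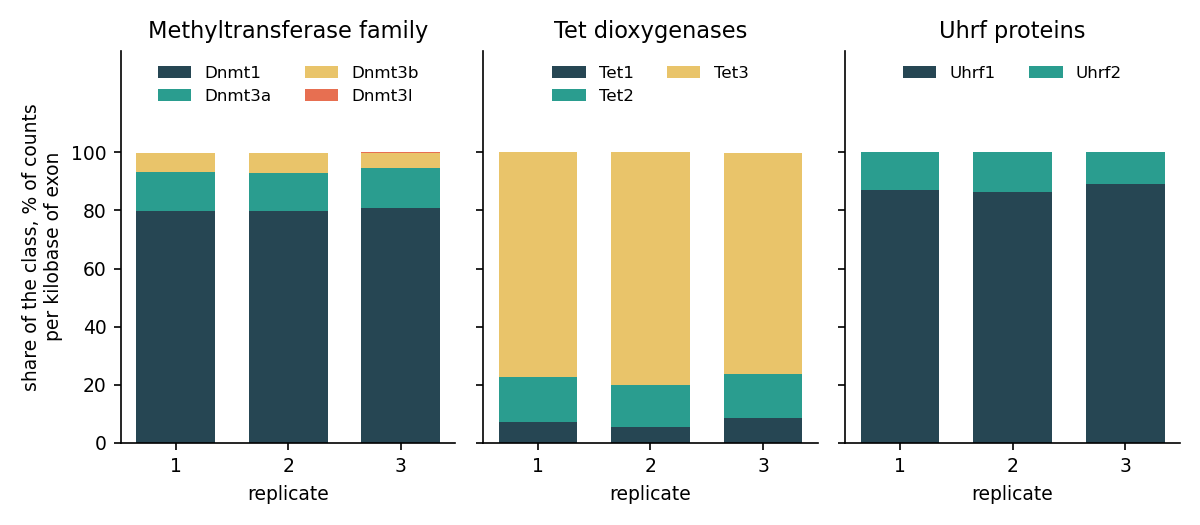
Share of each gene in the length-scaled level of its class, in percent, for each library. Dnmt1 made up 79.7 to 81.0% of the methyltransferase family and Tet3 76.3 to 80% of the Tet enzymes.

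Within the methyltransferase family Dnmt1 made up 80.2 ± 0.744% of the length-scaled level, Dnmt3a 13.5 ± 0.328% and Dnmt3b 6.27 ± 0.992%. These proportions differed little between libraries although the summed level did (250, 190 and 235). They depend on the length used. With the longest transcript they were 76.7% for Dnmt1, 17.7% for Dnmt3a and 5.64% for Dnmt3b.

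Tet3 was the most abundant Tet enzyme (chromosome 6, 83362373 to 83459084, minus strand). It held 3063, 1808 and 2180 counts, or 173, 130 and 141 CPM (148 ± 22.3), with replicate 1 the highest and replicate 2 the lowest. Its length-scaled level of 31.3 ± 5.71 was close to that of Dnmt3a. Tet2, the form often mutated in human blood cancers (chromosome 3, 133463679 to 133545139, minus strand), held 611, 330 and 439 counts, or 34.5, 23.7 and 28.4 CPM (28.9 ± 5.41). Tet3 exceeded Tet2 by a log2 ratio of 2.38 ± 0.08 per kilobase, in 3 of 3 libraries (5.16-fold in summed counts, exact interval 4.87 to 5.47). The interval is for counting error only, and replicates 1, 2 and 3 gave 5.07, 5.54 and 5.02-fold. Tet1, the form known from embryonic stem cells (chromosome 10, 62804570 to 62908996, minus strand), was the lowest at 15.2, 8.32 and 14.5 CPM (12.6 ± 3.76), from 269, 116 and 223 counts. Replicate 2 was low for Tet1 beyond its depth, and the ratio of Tet3 to Tet1 was 14.4-fold there against 10.5 and 9.05-fold in replicates 1 and 3. Tet3 made up 77.9 ± 1.88%, Tet2 15 ± 0.460% and Tet1 7.11 ± 1.46% of the length-scaled level of the Tet enzymes. With the longest transcript the shares were 77.2% for Tet3, 17.8% for Tet2 and 4.95% for Tet1.

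Summed per kilobase, Dnmt1, Dnmt3a and Dnmt3b exceeded the Tet enzymes by a log2 ratio of 2.49 ± 0.12, or 5.14, 5.75 and 6-fold in replicates 1, 2 and 3. For Dnmt3a against Tet3 alone there was no such gap, and their ranges overlapped. Tdg, which excises oxidised methylcytosine and mismatched thymine (chromosome 10, 82629828 to 82650799, plus strand), held 1167, 719 and 894 counts, or 65.8, 51.6 and 57.9 CPM (58.4 ± 7.14). Its length-scaled level was 38.4 ± 5.91. Estimated counts of Tdg were fractional in replicates 2 and 3, so its level is taken as uncertain. The annotation lists a processed pseudogene (Tdg-ps), and whether reads were shared with similar copies was not tested. Tdg also shares 367 nt of exon with Glt8d2 on the opposite strand, which held 3, 4 and 4 counts.

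In order of mean length-scaled level the genes ran Uhrf1, Dnmt1, Tdg, Uhrf2, Tet3, Dnmt3a, Dnmt3b, Tet2, Tet1 and Dnmt3l. Of the 9 neighbouring pairs, 6 had ranges over the libraries that did not overlap. The levels of Tdg (38.4 ± 5.91), Uhrf2 (36.7 ± 4.22), Tet3 (31.3 ± 5.71) and Dnmt3a (30.5 ± 4.79) overlapped from neighbour to neighbour, so no order is given among them. With the longest transcript Uhrf2 stood apart from Tet3, and both other overlapping pairs changed places. With n = 3, the libraries cannot give a two-sided exact sign-flip p below 0.25, so the 8 compared pairs carry no p.

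No member was called as varying between libraries more than genes of similar count. Of 9 members tested, 0 were called (edgeR deviance test, Benjamini-Hochberg adjusted p under 0.05), against 0.643% of the 11821 genes tested. At an unadjusted p under 0.05 it was 1 member, Tet1 (edgeR adjusted p = 0.476), against 5.9% of all genes. Dnmt3l did not pass the filter on low counts.

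The members nevertheless leaned the same way. After scaling by trimmed mean of M values (TMM), 7 of 9 detected members were lowest in replicate 2, against 32.3% of all detected genes, and 7 were highest in replicate 1, against 36%. The median log2 difference of replicate 2 from the mean of the others was -0.29 over the 9 members and near 0 (-0.00) over all detected genes. Tet1 was the farthest at -0.85, followed by Tet2 (-0.42), Dnmt3a (-0.35), Dnmt1 (-0.30) and Tet3 (-0.29), whereas Uhrf2 was higher in replicate 2 (0.10). Long transcripts were low in that library in general, and 8 of the 9 members have more exon than the median detected gene (4581 nt). Whether length accounts for the shift of the members was not tested. The 138 detected genes with exon lengths between 15033 and 16976 nt, a range that holds Tet1, Dnmt3a, Tet3 and Tet2, had a median of -0.28, and 95.7% of them were below 0. With a trend on exon length removed, the median of the members in replicate 2 was -0.14, and 8 of 9 were below 0, against 51.2% of all detected genes. Of these, Dnmt3b (-0.01) and Tet3 (-0.02) were close to 0. Dnmt3a then came to -0.08 and Tet2 to -0.15. Tet1 was at -0.60, Dnmt1 at -0.20, Tdg at -0.25 and Uhrf1 at -0.14, the last 2 little different from before (-0.28 and -0.12). The members lowest in replicate 2 numbered 6 of 9 after removal, against 29.4% of all detected genes, and those highest in replicate 1 fell from 7 to 4, against 31%. The S-phase genes, of which all 17 were detected, had a median of -0.02 in replicate 2 before removal of the trend.

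**Figure D3:**
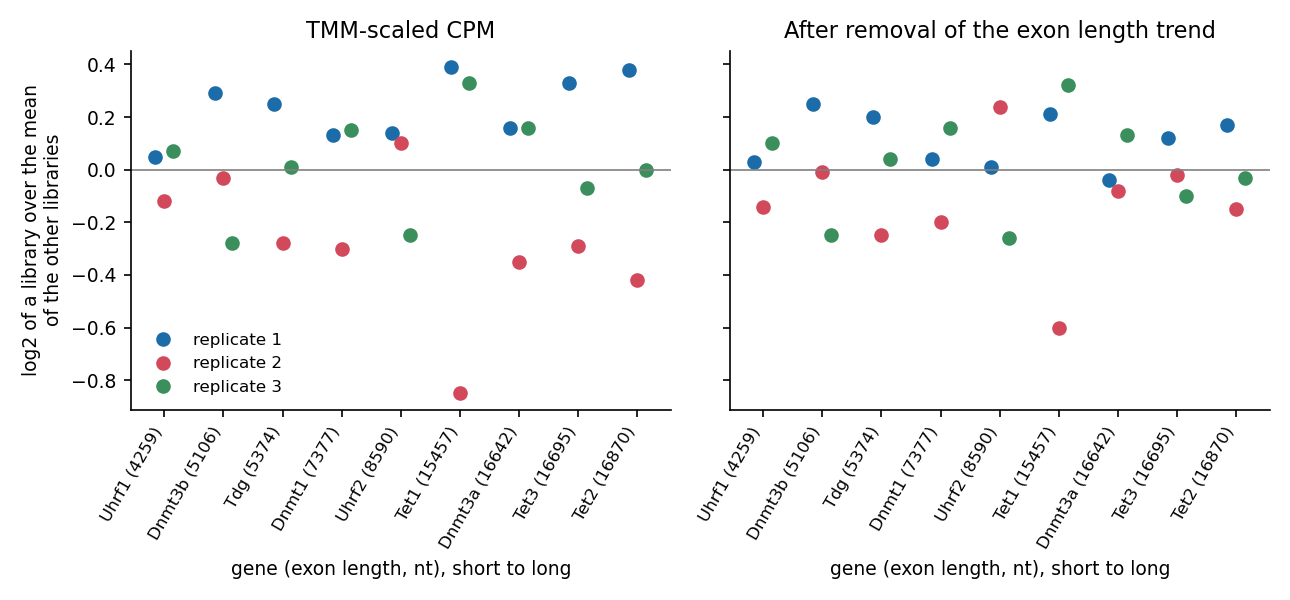
Log2 of TMM-scaled CPM in a library over the mean of the other libraries, for the 9 detected members ordered by exon length, before (left) and after (right) removal of a trend on exon length. Replicate 2 lies lowest for 7 of 9 genes on the left, and after removal Tet1 keeps the lowest value (-0.60).

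The partners of these genes were mostly detected, beside 47.3% of all named genes. Of 12 genes of maintenance methylation and its replication-fork setting, 11 were detected, with a median of 120 CPM. Pcna, the sliding clamp that tethers Dnmt1 to replication forks, had a length-scaled level of 469 ± 9.87. Ehmt2, a histone H3 lysine 9 methyltransferase that also methylates Lig1, reached 147, and Usp7, a deubiquitinase that binds Dnmt1 and Uhrf1, 126. Hells, the remodeller that opens nucleosomes for maintenance, and its activator Cdca7 were at 61.4 and 92.2. Dppa3, which removes Uhrf1 from chromatin in oocytes and early embryos, had no counts.

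All 16 genes that link methylation to histone marks or silencing were detected (median 82.7 CPM). Trim28, the corepressor of KRAB zinc finger proteins, led with a length-scaled level of 404, followed by the heterochromatin protein gene Cbx5 (197) and the polycomb methyltransferase gene Ezh2 (115). Zfp57, a zinc finger protein that protects imprinted methylation in embryos, was detected at 20 ± 1.66 CPM. Nsd1, the histone H3 lysine 36 methyltransferase whose mark recruits Dnmt3a in mouse cells, was the lowest of the list at 12.4 ± 1.68 CPM, whereas the related Nsd2 (listed as Whsc1) was at 329 ± 33.6 CPM.

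Of 11 genes listed as partners or guides of the Tet enzymes, 8 were detected (median 24.4 CPM). The CXXC protein gene Cxxc5 had a length-scaled level of 134, Sinhcaf (listed as Fam60a), a subunit of the Sin3 complex, 125, and Ogt, the sugar transferase bound by Tet2 and Tet3, 61.5. Wt1 and Prdm14 had no counts and Ebf1 held 2. All 10 methyl-CpG readers were detected (median 31.3 CPM), with Mbd3 (150), which binds methylated DNA weakly and belongs to the NuRD complex, Mbd2 (60.6) and Mbd6 (54.8) highest per kilobase.

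Base excision repair, which completes demethylation after Tdg, was represented by 11 detected genes of 12 (median 33.7 CPM). The endonuclease gene Apex1 had a length-scaled level of 290, Parp1 259 and the repair polymerase gene Polb 54.5. Neil1, a glycosylase known to assist Tdg, was at 2.92 ± 1.07 CPM and Neil2 held 2 counts.

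**Figure D4:**
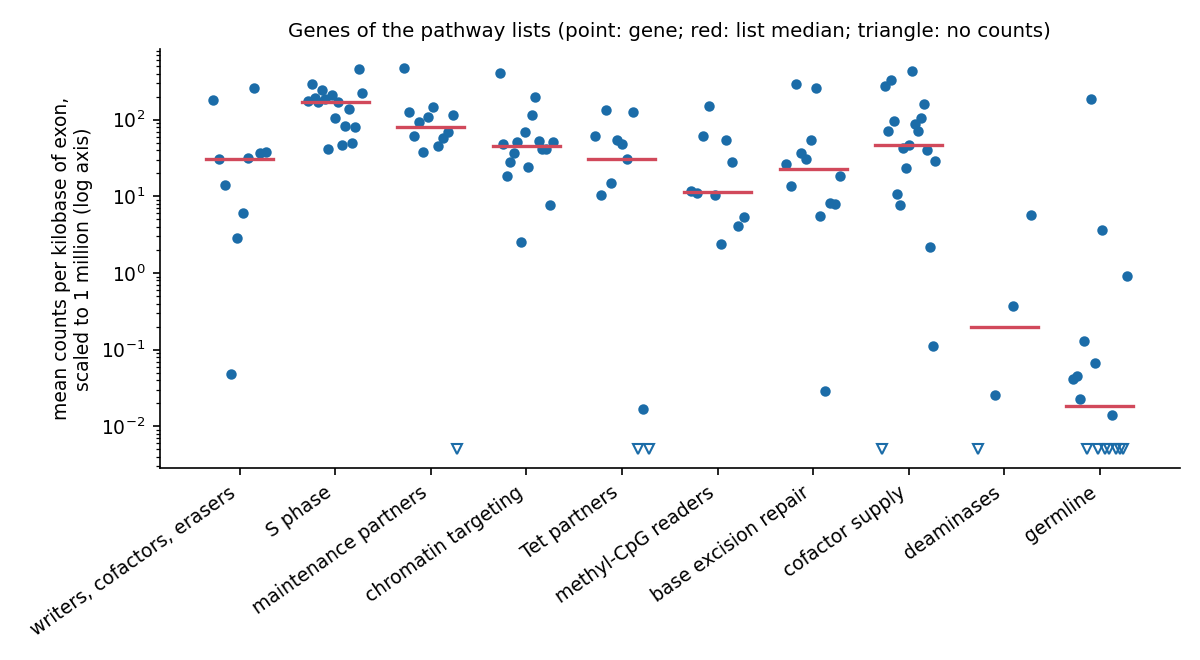
Mean length-scaled level (log axis) of each gene in 10 lists, with the list median in red and open triangles for genes without counts. Medians run from 172 for S phase and 80.2 for maintenance partners to 0.0185 for the germline list.

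The last list held 16 germline genes, many of them with CpG-rich promoters known in mouse to be methylated in somatic tissues. DNA methylation itself was not measured. Of the 16 genes, 3 were detected, against 47.3% of all named genes. No counts in any library were held by 7, a share little above the 36.7% of all named genes. Mael, Hormad1, Dpep3, Tex101, Stk31, Slc25a31 and Rhox13 had no counts, and Dazl and Ddx4, RNA-binding proteins of germ cells, held 2 counts each. Asz1, a protein of the piRNA pathway in germ cells, was the highest of the list, with 2467, 2112 and 2408 counts. That is 139, 151 and 156 CPM (149 ± 8.75), close between libraries. Its length-scaled level of 185 was beside that of Dnmt1 (180). Its exons overlap no other annotated gene. Brdt, a testis bromodomain protein, was at 5.22 ± 0.483 CPM, and Zcwpw1, a meiotic histone reader, at 1.48 ± 0.529 CPM.

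The promoter windows of Asz1, the germline gene with the highest level, and of Dazl, which was nearly silent, are shown. CpG dinucleotides are again in capitals.
Asz1 (chr6:18109012-18109311, minus strand): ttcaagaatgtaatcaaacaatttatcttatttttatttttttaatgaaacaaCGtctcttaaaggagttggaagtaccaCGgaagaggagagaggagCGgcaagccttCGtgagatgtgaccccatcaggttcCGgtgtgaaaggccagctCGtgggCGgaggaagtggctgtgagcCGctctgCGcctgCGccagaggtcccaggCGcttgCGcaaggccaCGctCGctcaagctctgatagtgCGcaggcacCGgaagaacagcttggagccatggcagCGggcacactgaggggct
Dazl (chr17:50293571-50293870, minus strand): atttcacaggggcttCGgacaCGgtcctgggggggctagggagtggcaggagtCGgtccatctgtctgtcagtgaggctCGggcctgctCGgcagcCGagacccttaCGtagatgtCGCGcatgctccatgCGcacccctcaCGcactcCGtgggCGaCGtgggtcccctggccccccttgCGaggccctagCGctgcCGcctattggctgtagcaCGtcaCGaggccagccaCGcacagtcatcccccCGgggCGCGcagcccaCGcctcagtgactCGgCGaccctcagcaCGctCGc
The Asz1 window holds 17 CpGs and the Dazl window 28. Over the list, the CpG-richest window of a gene held a median of 22.5, against 29 for the members and 8 for all genes with a window. The list was drawn up partly for CpG-rich promoters, so this number reflects how its genes were chosen. Rhox13 had 5 CpGs.

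**Figure D5:**
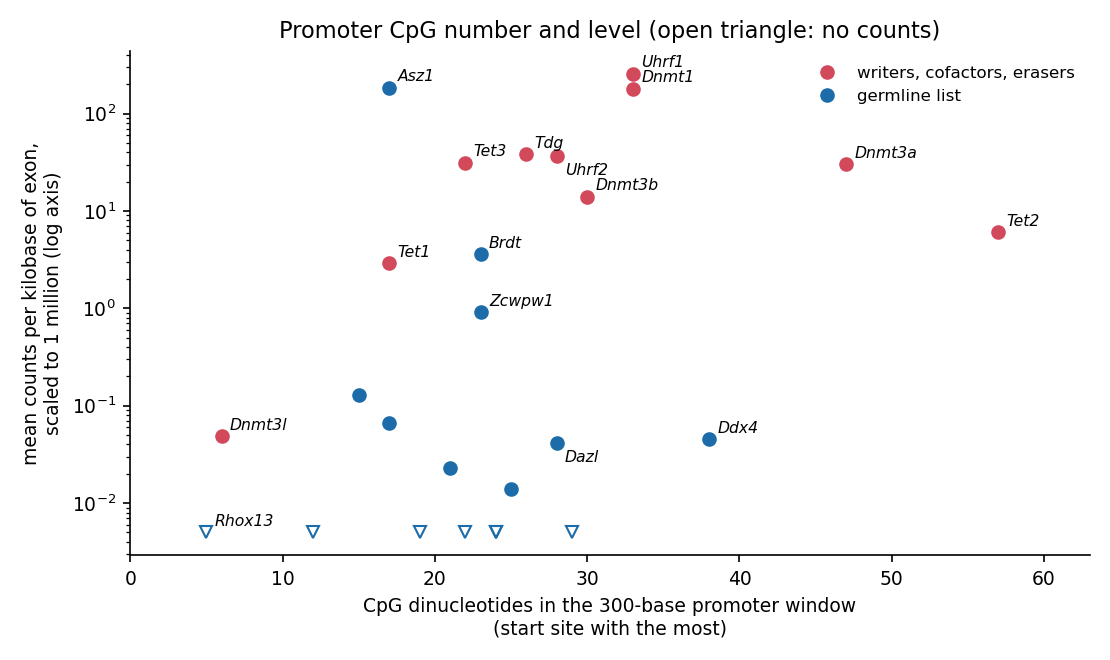
Number of CpG dinucleotides in the CpG-richest promoter window of each gene (start site with the most) against its mean length-scaled level (log axis), for the 10 members (red) and 16 germline genes (blue), with open triangles for genes without counts. Dnmt3l has 6 CpGs and a level near 0, whereas Dazl has 28 CpGs at a similar level and Asz1 17 CpGs at 185.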

How the data were processed

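Poly(A) RNA of 3 libraries was prepared with ISOGEN, bead selection and a directional kit, per the labels' protocols. The submitters' processing notes name STAR and mm10. How reads were counted, with which annotation and with which strand option, is not given in the sources used here. The deposited values are estimated counts, 1 row per symbol, without scaling for depth, and 578 genes had values that were not whole within 0.01. Counts were rounded to whole numbers. Of 24411 rows, 27 carried calendar dates in place of symbols and entered neither totals nor tests (0.306, 0.294 and 0.281% of counts).

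Exon lengths (union of exons) and positions came from GENCODE M21 on the same build, matched for 23999 genes (98.4%), 649 through older symbols in RefSeq. The test of variation used edgeR 4.0.16 (R 4.3.3) and an intercept-only fit with TMM, filterByExpr and trended dispersion, and the deviance of each gene against a chi-square distribution with 2 degrees of freedom. It was tested on counts simulated from the same model and dispersion, so that run cannot show how well the model fits these libraries. How small a shift the test can find in the members is not reported here. DESeq2 1.42.0 gave alternative size factors. The length trend was a natural spline with 4 degrees of freedom on log2 exon length, fitted per library over detected genes. Intervals of ratios of summed counts are exact (Clopper-Pearson, 95%). Intervals and limits cover counting error only, at 13942014 to 17731376 counts per library. Python 3.11.15, pandas 2.3.3 and SciPy 1.17.1 were used for the rest.

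The 10 members and the lists were chosen with earlier results of these data known. The text names all members, the 3 genes of each list highest per kilobase, its first undetected genes and further genes where a list is described. Genes named outside that rule, such as Zfp57, Nsd1, Nsd2, Hells, Cdca7 and Neil1, were chosen after their values were seen, as were the exon length range and the promoter search. Some listed genes are not reported here.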

Additional observations from a re-analysis of the deposited data

How the results depend on the processing

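The number of detected members stayed at 9 under each alternative for the CPM minimum, scaling, length and left-out libraries, and 0 members were called varying under each of the 7 alternatives of that test. For Tet1 the edgeR adjusted p ranged from 0.324 to 1 when a library was left out, and was 0.213 with a common dispersion. Called genes over the whole table numbered 76, against 116 with a common dispersion, 36 without replicate 1 and 40 without replicate 2. Ratios between members depended mainly on length. Without division by length the log2 ratio of Dnmt1 to Uhrf1 turned from -0.52 to 0.27, Dnmt1 to Dnmt3a was 1.40, Dnmt3a to Dnmt3b 2.82, Uhrf1 to Uhrf2 1.80, and methyltransferases to Tet enzymes 1.52. With the longest transcript these were 2.12 for Dnmt1 to Dnmt3a, 1.66 for Dnmt3a to Dnmt3b, 1.78 for Uhrf1 to Uhrf2, 2.12 for Tet3 to Tet2, 3.98 for Tet3 to Tet1, and 2.26 for methyltransferases to Tet enzymes. Each of these shifts follows from the change of length by construction. The median shift of the members went from 0.25 to 0.12 in replicate 1 and from -0.29 to -0.14 in replicate 2 once the exon length trend was removed. Of the glial markers, 0 reached a length-scaled level of 1 in every library. When a library was left out, ratios with an SD could not move beyond it by construction at n = 3, so no conclusion is drawn. The mean log2 ratio of Dnmt3a to Dnmt3b was then 0.97 to 1.23, and that of Tet3 to Tet1 3.29 to 3.62. No paired analysis was possible because there was 1 group. Depth limits Dnmt3l, where 2 counts over 3 libraries leave its level uncertain by over an order of magnitude.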

Other observations

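Genes that supply the substrates of these enzymes were mostly detected. Of 19 genes of S-adenosylmethionine, folate and 2-oxoglutarate metabolism, 17 were detected, against 47.3% of all named genes. The median of the list was 63 CPM, against 0.616 CPM over all named genes. Highest per kilobase were Shmt2, the mitochondrial serine hydroxymethyltransferase (429), Ahcy, which clears the inhibitory by-product S-adenosylhomocysteine (334), and Mat2a, which makes S-adenosylmethionine outside the liver (272). Ahcy had fractional counts, so its level is uncertain. Mat1a, the liver form, had no counts, and Slc23a1, an ascorbate transporter, held 5, whereas its relative Slc23a2 was at 64.4 ± 5.28 CPM. Idh1 and Idh2, which make 2-oxoglutarate, the cosubstrate of Tet enzymes, were at 56.6 ± 9.74 and 76.2 ± 13.9 CPM. Idh3a of the same list was higher, at 233 ± 18.8 CPM.

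Of the cytidine deaminase genes, Apobec3 was detected at 15.2 ± 1.38 CPM, whereas Apobec1 held 1 count and Apobec2 held 8.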
